A study of Danio rerio with 10 samples.

Results

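The genes described here are 189 of the 200 genes with the most normalized reads in V1 and dI2 spinal interneurons of zebrafish embryos at 27 h, out of 15369 genes in the deposited table. They were chosen by the group means alone, in 2 steps. The 200 rows with the highest authors' mean in uninjected controls were taken, and 11 rows were then set aside because their DKD morphant mean was not between 0.5 and 2 times the control mean. Both group means chose the genes, so the levels, ratios and ranks below are a description with no test. Bulk RNA-Seq had been performed on EGFP-positive, FAC-sorted cells from 5 biological replicates of *hmx2;hmx3a* double knockdown (DKD) morphants and 5 of uninjected controls. All embryos carried the SU41 transgene, in which the conserved element hmx CNEIII with a cfos promoter drives GAL4-VP16, and GAL4-VP16 turns on UAS:EGFP. The sort therefore takes cells in which this element is active. The labels name the tissue as spinal cord, while the protocol dissociated dissected trunks, which also hold muscle and skin. Each DKD morphant embryo received 3.5 nl of a mixture with 2 ng/nl each of morpholinos against *hmx2* and *hmx3a* and 5 ng/nl of a *p53* morpholino, and was kept at 32 °C from 9 hpf. Uninjected controls had no morpholino and no warm incubation. Injection, the *p53* morpholino and temperature thus went with the knockdown and cannot be told apart from it. The paper states that DKD embryos developed late, and that the warm incubation was meant to offset this. They were matched to controls by eye, from head-trunk angle and the size of head and eye. Any difference in stage that was left cannot be told apart from the knockdown either. Malformed embryos, and injected embryos without the curled-down tail of DKD morphants, were removed before sorting, so the morphants are a selected group.

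Both hmx morpholinos are translation-blocking oligos of 25 bases. Their sequences are shown because they define the DKD morphants, with the letters CAT, the reverse complement of a start codon, in capitals at positions 23 to 25 from the 5′ end.
hmx2 morpholino: ttccgctgtcctccgaattattCAT
hmx3a morpholino: acgtatcctgtgttgtttcgggCAT
A translation block need not lower the targeted transcript, so the level of either transcript does not check the labels. The mean of *HMX2* (*hmx2*, ENSDARG00000070954) was 695 in DKD morphants against 215 in controls, and that of *HMX3* (*hmx3a*, ENSDARG00000070955) was 1804 in DKD morphants and 736 in controls.

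V1 cells are inhibitory interneurons of the ventral spinal cord that express engrailed genes, and dI2 cells are dorsal commissural interneurons. Both are young at this stage and are growing axons. A neuron at this stage makes large amounts of tubulin, actin and their regulators for the growth cone, of proteins that will release transmitter, and of the enzymes and pumps that supply and spend its energy. Transcripts of such housekeeping and cytoskeletal genes take a large part of the reads of most libraries. The values were the authors' least squares means of normalized reads per gene, not divided by transcript length. A place in the order therefore reflects reads, and a long transcript gathers more of them than a short one at the same number of molecules. Only group means were used here, with no spread between replicates and without the authors' own comparison. No difference below is therefore set against replicate error.

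The authors' means of all 15369 rows summed to 812535 normalized reads in DKD morphants and 837941 in uninjected controls, with medians of 13.7 in DKD morphants and 13.2 in uninjected controls, so the scale of the groups was close (log2 of the ratio of totals -0.04). The lists of marker genes were checked first. Among the V1 and dI2 identity genes, *en1b*, the engrailed gene of V1 cells, had 672 in DKD morphants against 754 in uninjected controls. The paired box gene *PAX2* (ENSDARG00000028148) had 458 in DKD morphants and 572 in controls, and the LIM homeobox gene *lhx5* had 441 in DKD morphants against 557 in controls. All of these 3 transcription factor genes were members. The neuronal RNA-binding protein genes *ELAVL3* and *ELAVL4* and both *STMN2* rows were members as well. The inhibitory vesicle transporter gene *SLC32A1* had 486 in DKD morphants and 613 in uninjected controls, against 72.8 and 61.2 in DKD morphants and 62.1 and 44.2 in uninjected controls for the 2 rows of the glutamate transporter gene *SLC17A6*. The identity, neuronal and transmitter markers named above that were members are genes of neurons, and none of them is specific to dI2 cells. Of these, *en1b* is a gene of V1 cells. Muscle markers were members too, among them *actc1b* and *ckma*, at ranks 17 and 108 in uninjected controls. The paper describes dI2 cells as excitatory. The *SLC17A6* rows stood at ranks 2757 and 3680 in uninjected controls. By qRT-PCR, the paper found *slc17a6b* and *slc32a1* enriched in EGFP-positive over EGFP-negative cells of this line. It also reports EGFP in all spinal interneurons with *hmx3a* expression, and that all cells were EGFP-positive after sorting. The part of dI2 cells in the reads was not tested here. Among the 17 identity rows with a mean of at least 10 that were not members, 14 were higher in DKD morphants and 3 lower.

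Transcripts of other cell types were present too, and their group means differed. Of 35 neural progenitor and cell cycle rows with a mean of at least 10, 26 were higher in DKD morphants and 9 lower. The sum of that list was 6196 in DKD morphants and 5732 in uninjected controls, and the members *STMN1*, *HMGB2* and *tuba8l4* stand in it. *STMN1* alone had 1582 in DKD morphants and 1766 in uninjected controls. Below, *STMN1* is grouped with axon growth genes, *HMGB2* with chromatin genes and *tuba8l4* with tubulins. The sum is therefore not one of progenitor transcripts alone. The muscle list had 35 rows that reached a mean of 10 in a group, of which 25 were lower and 10 higher in DKD morphants, and its summed share was 1.18% in DKD morphants and 1.49% in uninjected controls. The list of skin and notochord genes had 22 of 29 rows lower, and its sum was 2255 normalized reads in DKD morphants and 6148 in uninjected controls. The skin keratin gene *krt4* alone had 1077 in DKD morphants against 3557 in controls. Notochord rows of the same list were low and in part higher in DKD morphants: one row of *COL2A1* (ENSDARG00000069093) had 105.7 in DKD morphants and 53.2 in uninjected controls and *ntd5* had 10.1 in DKD morphants and 6.14 in controls, while the other *COL2A1* row (ENSDARG00000011407) had 31.2 in DKD morphants and 40.4 in uninjected controls. For blood genes 9 of 10 rows were higher, with a sum of 999 in DKD morphants and 141 in uninjected controls. Rows of motoneuron and other spinal neuron genes were few: 11 reached a mean of 10, of which 8 were higher and 3 lower in DKD morphants, and 5 were higher past 1.5-fold. The sum of this list was 1035 in DKD morphants and 557 in uninjected controls, and DMRT3, a gene of dI6 interneurons in mouse, had 274 in DKD morphants and 4.099 in uninjected controls. No listed row of these types was at 0 in either group, but listed genes without a row are not covered. The muscle list had 39 rows for 49 genes, and skin and notochord 31 for 36. Blood had 11 rows for 23 genes, and other spinal neurons 26 for 45. The defining markers *MYOD1* (muscle), *TP63* (skin) and *SOX10* (neural crest) had 4.90, 15.4 and 24.7 in DKD morphants and 2.35, 29.3 and 6.30 in uninjected controls. Fewer cells of a type and less RNA per cell cannot be told apart in bulk samples. The part of these other cells in the levels of the members was not tested.

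The 189 genes are 1.23% of the rows and held 27.2% of the summed means in DKD morphants, against 29.2% in uninjected controls, a difference of -1.94 percentage points. Their means spanned 389 to 12484 normalized reads in DKD morphants, with a median of 779, and 546 to 13753 in uninjected controls, with a median of 861. The order is steep at the top. Ranked within their own group, the 10 highest rows of all held 6.39% of the summed means in DKD morphants and 7.18% in uninjected controls. The 50 highest held 15.1% in DKD morphants and 17.0% in uninjected controls, and the 200 highest held 28.8% in DKD morphants and 31.1% in uninjected controls. In DKD morphants 147 rows were needed to reach 25% of the summed means, against 120 in uninjected controls. For 50% the numbers were 776 in DKD morphants and 688 in uninjected controls. The reads of DKD morphants were thus spread over more rows than those of uninjected controls at each of these marks. The 11 rows set aside held 1.01% in DKD morphants and 1.98% in uninjected controls, so that the 200 rows together differed by -2.91 percentage points.

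**Figure D1:**
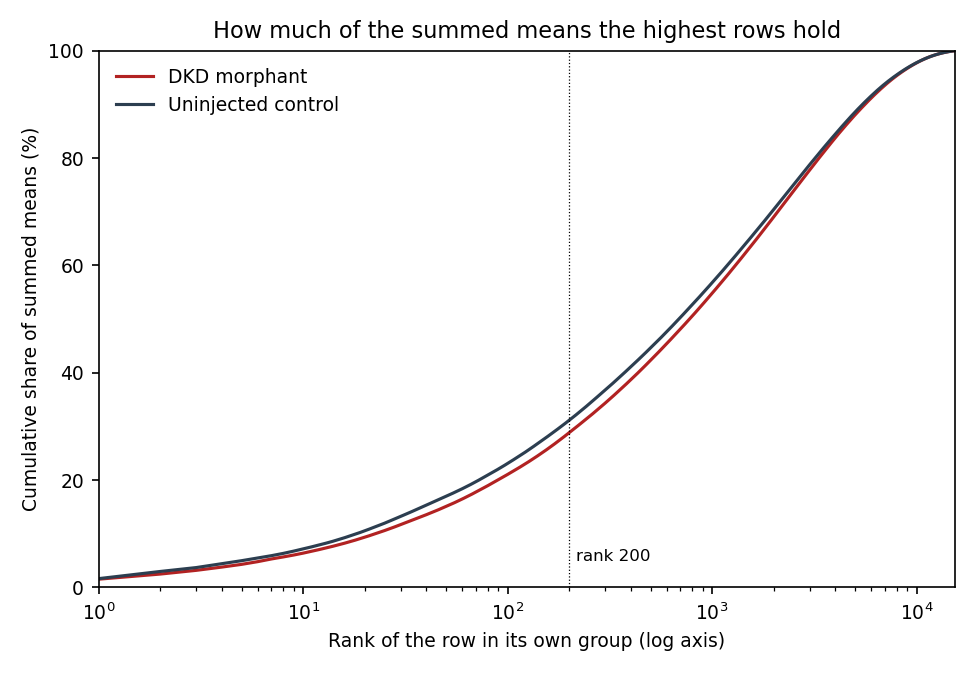
Cumulative share of the summed group means (vertical axis, %) against the rank of each row in its own group (horizontal axis, log scale), for DKD morphants (red) and uninjected controls (dark blue). The line of the uninjected controls lies above that of the DKD morphants over the highest ranks, and at rank 200 they stand at 28.8% in DKD morphants and 31.1% in uninjected controls.

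Of the 189 genes, 130 (68.8%) had a lower mean in DKD morphants and 59 (31.2%) a higher one, where 48.1% of all rows were lower. With both groups scaled to the same total 114 were lower, and with ratios centred on the median of rows with a mean of at least 10 the number was 134. The median log2 ratio of DKD morphant to control was -0.14 over the 189 genes and 0.01 over all rows. The quartiles lay at -0.29 and 0.05 and the extremes at -0.71 and 0.62. In all, 140 of the genes (74.1%) had a ratio between 4 to 5 and 5 to 4. Past 1.5-fold, 2 were higher (1.06%) where 7.18% of all rows and 5.66% of rows with a mean of at least 10 were, and 9 were lower (4.76%) where 8.63% of all rows and 5.6% of rows with a mean of at least 10 were. Past a ratio of 5 to 4, 6 were higher (3.17%), against 18.2% of all rows and 15.6% of rows with a mean of at least 10. Past 4 to 5, 43 were lower (22.8%), against 17.2% of all rows and 13.1% of rows with a mean of at least 10. The ratio window that chose the genes cuts off larger differences, so nothing is read from these shares or from the spread of the ratios.

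**Figure D2:**
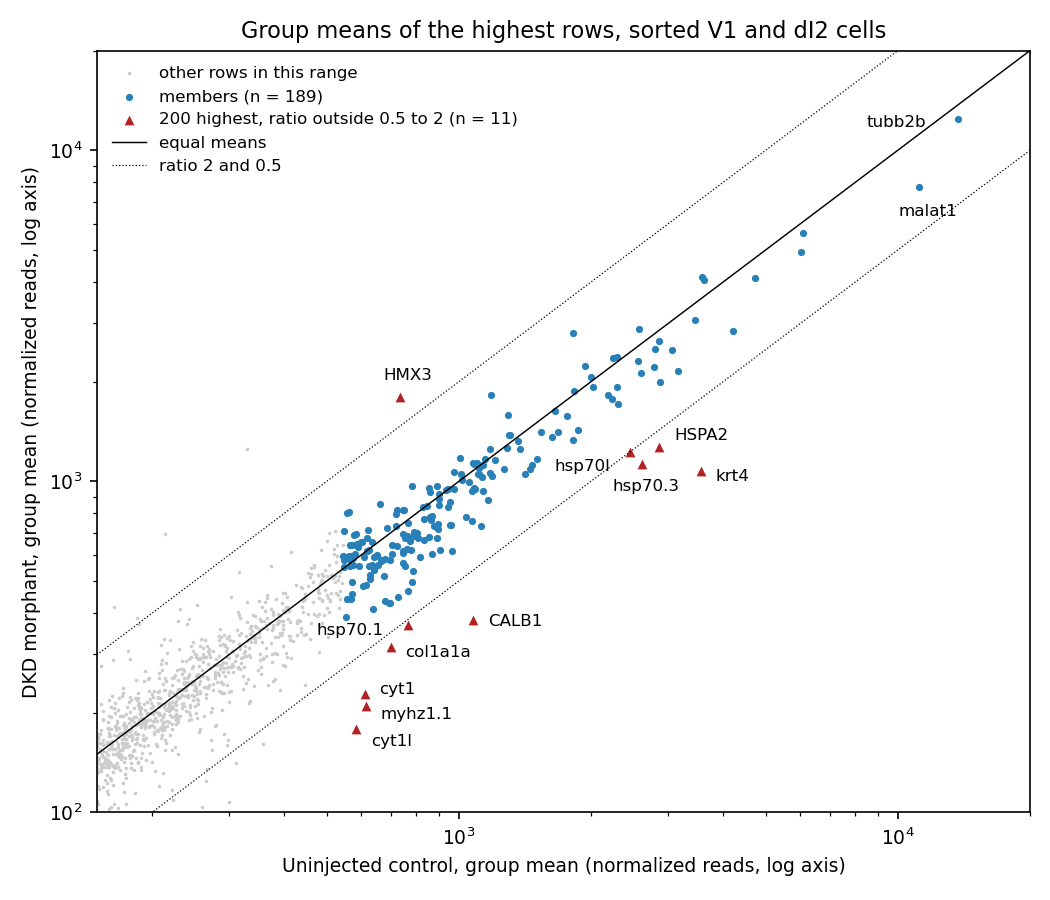
DKD morphant mean (vertical) against uninjected control mean (horizontal), both in normalized reads on log axes, for the 189 members (blue), the 11 rows of the 200 highest that lie outside the ratio window (red triangles) and other rows of this range (grey). Most blue points lie on or just under the line of equal means, *HMX3* is the single triangle above the upper dotted line, and the other 10 triangles lie below the lower one.

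The ratio also differed with rank below the 200 rows, among rows inside the same window. The median log2 ratio was -0.05 for the next 200 rows, with 60.1% of those inside the window lower in DKD morphants, and -0.05 for the 600 rows after those, with 58.5% lower. For the following 1000 rows it was -0.01, with 51.4% lower, and for the 3000 rows that came next it was 0.00, with 49.3% lower. Of the 10369 rows below rank 5000, those inside the window had a median of 0.04, and 45.2% of these were lower. The control mean ranked these rows. When the DKD morphant mean ranked them, the 193 rows inside the window had a median of -0.06, so the size of the difference at the top depends on which group ranks the rows.

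The gene with the most reads in both groups was *tubb2b*, a beta-tubulin gene of neurons, with 12484 in DKD morphants against 13753 in uninjected controls (ratio 0.908). It alone held 1.54% of the summed means in DKD morphants and 1.64% in uninjected controls. The next place, also in both groups, belonged to *malat1*, a long noncoding RNA that stays in the nucleus, with 7746 in DKD morphants and 11183 in controls (ratio 0.693). Its share was 0.953% in DKD morphants and 1.33% in uninjected controls, which is the widest difference in share of any role group named here apart from glycolysis. The alpha-tubulin gene *tuba1c* came next, with 5637 in DKD morphants against 6088 in controls. *GAPDHS*, which encodes the glycolytic enzyme glyceraldehyde-3-phosphate dehydrogenase, had 4927 in DKD morphants and 6022 in uninjected controls. *ALDOC*, an aldolase of brain, had 2846 in DKD morphants against 4214 in controls, and was at rank 10 in DKD morphants and 6 in uninjected controls. *TUBA1A*, the alpha-tubulin of young neurons, had 4065 in DKD morphants and 3627 in controls. *CKB*, the brain creatine kinase that buffers ATP, had 4135 in DKD morphants against 3577 in uninjected controls. Both of these were higher in DKD morphants. The calmodulin gene *calm3b* had 3081 in DKD morphants and 3454 in controls, and the chromatin protein gene *HMGB3* had 2151 in DKD morphants against 3162 in controls. The 10 members with the highest control means held 6.30% of the summed means in DKD morphants and 7.14% in uninjected controls, and 8 of them had the lower mean in DKD morphants.

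**Figure D3:**
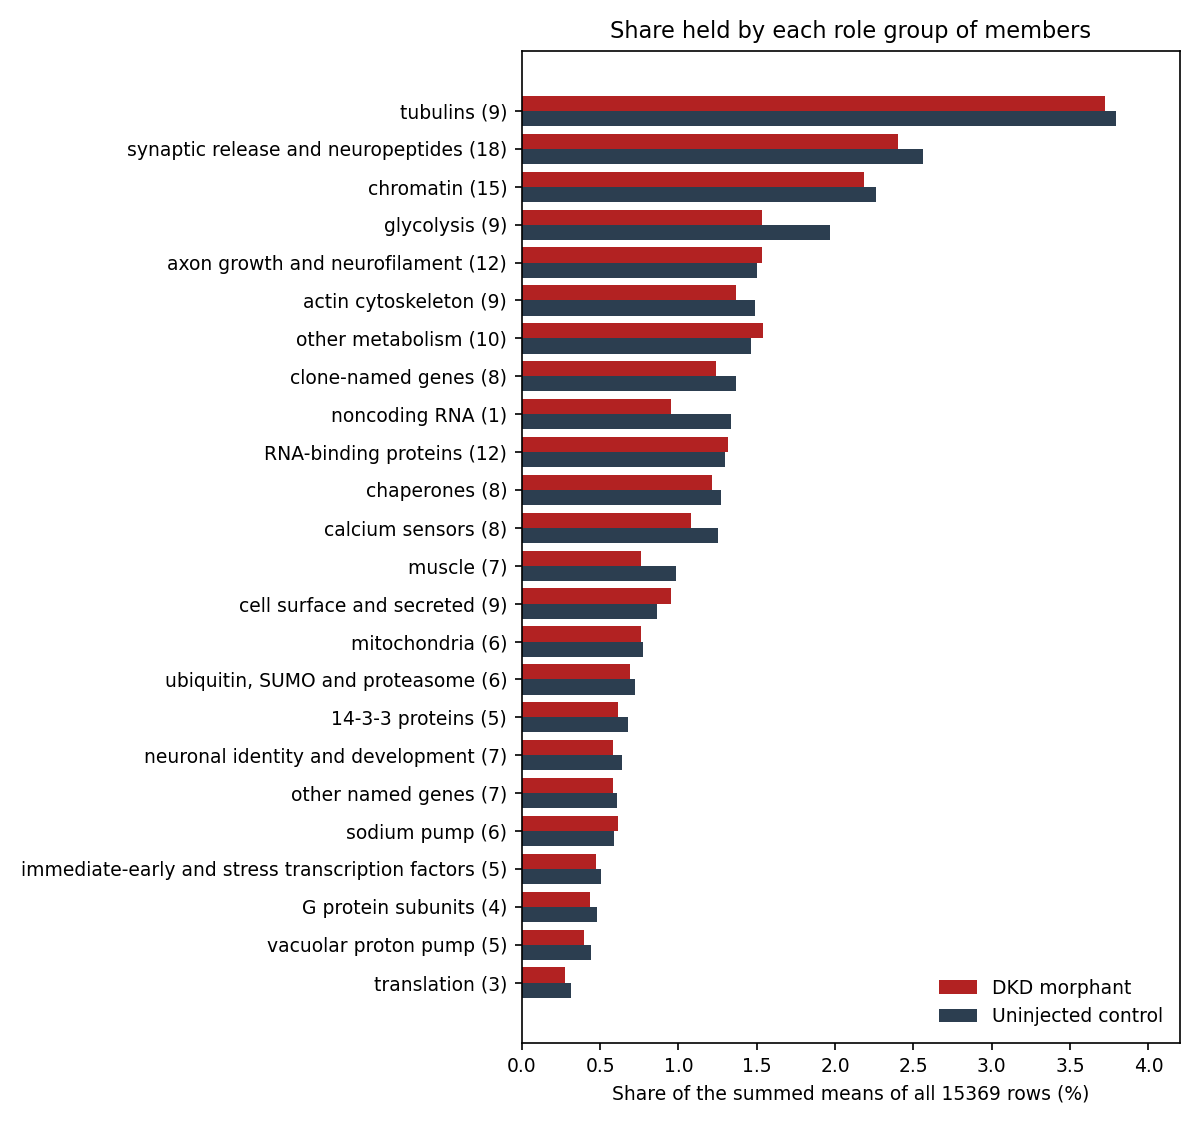
Share of the summed means of all 15369 rows (horizontal axis, %) held by each role group of members, with DKD morphants (red) above uninjected controls (dark blue) and the number of genes in parentheses. Tubulins hold the longest bars, at 3.72% in DKD morphants and 3.80% in uninjected controls, and the glycolysis pair differs most, at 1.54% in DKD morphants and 1.97% in uninjected controls.

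Among cytoskeletal genes the tubulins formed the largest share of any role group, 3.72% in DKD morphants and 3.80% in uninjected controls over 9 genes, of which 4 were higher and 5 lower in DKD morphants (median log2 ratio -0.07). Ratios differed within the family. The beta-tubulin gene *tubb4bl* had 1331 in DKD morphants and 1817 in uninjected controls (ratio 0.733), while the alpha-tubulin gene *tuba8l4* had 710.4 in DKD morphants against 547 in controls (ratio 1.299). The beta-tubulin gene *tubb5* had 2374 in DKD morphants and 2291 in controls. Tubulin paralogs are close in sequence, and so are the actins, calmodulins and histone genes below, so reads may have been shared out between copies in the authors' counting, and differences between paralogs are uncertain for that reason. The actin group had 7 of 9 genes lower (median log2 ratio -0.16), with 2508 in DKD morphants against 2799 in uninjected controls for *actb1* and 2125 in DKD morphants and 2603 in controls for *actb2*. Both encode cytoplasmic beta-actin. The MARCKS-like gene *marcksl1b*, whose product binds actin at the membrane, had 1934 in DKD morphants against 2296 in controls. *PFN2* (profilin), which feeds actin monomers to growing filaments, and *FSCN1* (fascin), which bundles them in growth cones, were the 2 genes of this group above the control mean, at ratios of 1.099 and 1.05.

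Genes of axon growth were split evenly, 6 higher and 6 lower, with a median log2 ratio of 0.02, and under scaling to the same total 3 of the 12 were lower. The growth cone protein gene *gap43* had 1127 in DKD morphants and 1084 in uninjected controls, and *MAP1B*, whose product binds microtubules in growing axons, had 1012 in DKD morphants against 1017 in controls. Stathmins release tubulin from microtubules, and *STMN1* had 1582 in DKD morphants and 1766 in controls, while the rows of *STMN2* had 1634 in DKD morphants against 1658 in uninjected controls (ENSDARG00000070537) and 1088 in DKD morphants and 1269 in controls (ENSDARG00000033234). The exception in size was *nefmb*, a neurofilament medium chain gene, with 806 in DKD morphants against 562 in controls (ratio 1.43). *KIF5A*, a kinesin motor of axonal transport, lay on the other side, with 667 in DKD morphants and 833 in uninjected controls (ratio 0.8001). The reticulon genes *rtn1b* and *rtn1a*, which encode proteins of the endoplasmic reticulum, had ratios of 1.06 and 0.976, and *GPM6A*, a membrane glycoprotein gene of growth cones, had 658 in DKD morphants against 602 in controls.

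The 9 glycolysis genes were all lower in DKD morphants, where 68.8% of the 189 genes were. Their log2 ratios ran from -0.71 to -0.22, with a median of -0.39. Together they held 1.54% of the summed means in DKD morphants and 1.97% in uninjected controls, a difference of -0.43 percentage points. Their enzymes act at steps between glucose-6-phosphate and lactate. The isomerase gene *GPI* had 619.6 in DKD morphants and 907 in controls (ratio 0.683), and the aldolase genes *ALDOC* and *ALDOA* had ratios of 0.675 and 0.859. The triose phosphate isomerase gene *TPI1* had 674 in DKD morphants against 891 in uninjected controls, and the enolase gene *ENO1* had 1119.6 in DKD morphants and 1468 in controls. The lowest ratio was that of *PKM*, pyruvate kinase, which makes pyruvate and ATP in the last step, with 447 in DKD morphants against 729 in controls (ratio 0.613). The lactate dehydrogenase genes *LDHA* and *LDHB* had ratios of 0.798 and 0.822. Among the 8 further glycolysis rows with a mean of at least 10 that were not members, 6 were lower and 2 higher (median log2 ratio -0.33). The hexokinase gene *HK1*, for the entry step, had 497 in DKD morphants and 465 in uninjected controls, and *eno2*, the neuronal enolase gene, had 409 in DKD morphants against 397 in controls. *PFKP*, phosphofructokinase, had 183 in DKD morphants and 279 in controls (ratio 0.656), and *pgam1a*, phosphoglycerate mutase, had 63.4 in DKD morphants against 123 in uninjected controls (ratio 0.516). Several of these enzymes are shared with muscle, whose list sum was also lower in DKD morphants (9590.1 normalized reads in DKD morphants and 12467 in uninjected controls), and 2 aldolase rows, both of *ALDOA* (ENSDARG00000011665, a member, and ENSDARG00000034470), stand in both lists. The part of muscle transcripts in the glycolysis values was not tested.

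The 7 muscle genes among the members were all lower in DKD morphants, where 68.8% of the 189 genes were. Their median log2 ratio was -0.47. Their share was 0.761% in DKD morphants and 0.984% in uninjected controls. Of the sarcomere genes, *actc1b*, an alpha-actin gene, had 2224 in DKD morphants and 2788 in controls, and *tpma* (tropomyosin) had 537 in DKD morphants against 788 in controls. The myosin heavy chain gene *myhz1.3* had 516 in DKD morphants and 676 in uninjected controls. *MYL11*, a fast myosin light chain gene, had the lowest ratio of the group, with 618 in DKD morphants against 967 in controls (ratio 0.64). The calcium pump gene *atp2a1*, which refills the sarcoplasmic reticulum, had 936 in DKD morphants and 1137 in controls, and the muscle creatine kinase genes *ckma* and *ckmb* had ratios of 0.72 and 0.711. These genes mark differentiated skeletal muscle. The values of the whole muscle list, in which *MYL11* has no row, are given above.

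For the other metabolic genes 5 were higher and 5 lower, with a median log2 ratio of 0.00 that became -0.02 after centring. *FABP3*, a fatty acid binding protein gene, had 967 in DKD morphants against 782 in uninjected controls (ratio 1.24), and *tdh*, threonine dehydrogenase, had 2226 in DKD morphants and 1942 in controls. In the other direction stood *ca2*, carbonic anhydrase, with 430.3 in DKD morphants against 698 in controls (ratio 0.617). *GPX4*, whose enzyme reduces lipid peroxides, had 412 in DKD morphants and 638 in uninjected controls (ratio 0.646). *ACLY*, whose enzyme makes cytosolic acetyl-CoA, had 566 in DKD morphants against 746 in controls. The antizyme genes *oaz1b* and *OAZ1*, which limit polyamine synthesis, had ratios of 1.02 and 0.826. Genes for mitochondrial transport and ATP synthesis were 3 higher and 3 lower, with a median log2 ratio of -0.01 that became 0.03 under scaling to the same total. The ADP/ATP carrier gene *SLC25A5* had 2319 in DKD morphants and 2562 in controls, the outer membrane channel genes *VDAC3* and *VDAC1* had ratios of 1.098 and 0.792, and *ATP5F1B*, the ATP synthase beta subunit gene, had 944 in DKD morphants against 936 in uninjected controls. *MT-CO2*, a cytochrome oxidase subunit gene on the mitochondrial genome, was just inside the 200 rows at rank 199 in uninjected controls and had 581 in DKD morphants and 547 in controls. Over the whole list of nuclear genes for the respiratory chain and ATP synthase, 68 of 87 rows with a mean of at least 10 were lower (median log2 ratio -0.10).

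**Figure D4:**
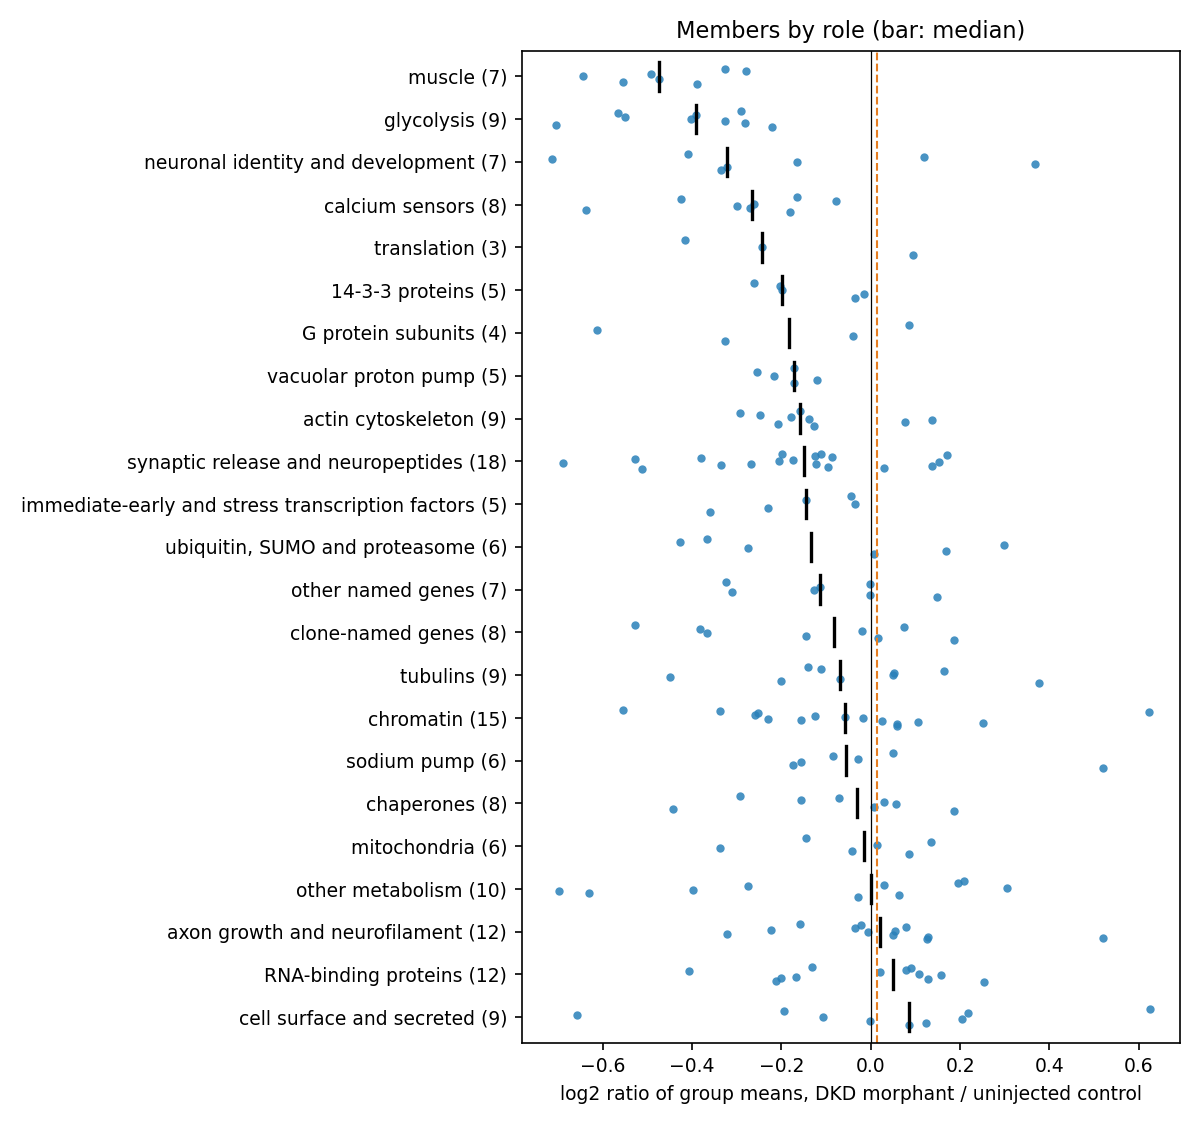
Log2 ratio of group means, DKD morphant over uninjected control (horizontal axis), for members (blue points) by role group (number of genes in parentheses). A black bar marks the group's median and the orange dashed line the median of all rows (0.01). The noncoding RNA *malat1*, alone in its role group, is not drawn. Muscle and glycolysis genes lie wholly left of 0, with medians of -0.47 and -0.39, while the medians of chaperone and mitochondrial genes change side under scaling to the same total and that of other metabolism changes side after centring.

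The sodium pump, which restores the ion gradients of neurons, gave 6 members, of which 2 were higher and 4 lower. The alpha subunit gene *atp1a3b* had 800.2 in DKD morphants against 558 in controls (ratio 1.43), while its paralog *atp1a3a* had 882 in DKD morphants and 899.6 in uninjected controls. The summed share of the pump genes was 0.614% in DKD morphants and 0.590% in uninjected controls. All 5 members for the vacuolar proton pump, which acidifies synaptic vesicles and lysosomes, were lower, with log2 ratios between -0.25 and -0.12. Of the 189 genes, 68.8% were lower. The proteolipid subunit gene *ATP6V0C* had 837 in DKD morphants against 943 in controls, and the subunit genes *ATP6V1A* and *ATP6V1B2* of the ATP-splitting head had ratios of 0.888 and 0.838.

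Among the 18 genes of synaptic release and neuropeptides, 14 were lower and 4 higher (median log2 ratio -0.15). The SNARE protein gene *SNAP25* had 2648 in DKD morphants and 2862 in controls, and *cplx2a*, a complexin gene whose product binds the assembled SNARE complex, had 2889 in DKD morphants against 2569 in uninjected controls (ratio 1.12). *NSF*, the ATPase that takes SNARE complexes apart after fusion, had 738 in DKD morphants and 959.9 in controls (ratio 0.768). *PENK*, which encodes the enkephalin opioid peptides, had 430.3 in DKD morphants against 694 in controls (ratio 0.62). The granin gene *scg2b* had 603 in DKD morphants and 869.6 in uninjected controls (ratio 0.693), and *pcsk1nl*, which encodes a prohormone convertase inhibitor, had 389 in DKD morphants against 555 in controls (ratio 0.701). *CPE*, the carboxypeptidase that trims neuropeptides, had 995 in DKD morphants and 1056 in controls. The adhesion molecule gene *nrxn1a* (neurexin) was above the control mean at a ratio of 1.11. For membrane traffic, the small GTPase gene *RAB2A* had 766 in DKD morphants against 864 in uninjected controls, and *AP2M1*, a clathrin adaptor subunit gene, had 697 in DKD morphants and 804 in controls. Both stood below the control mean, and so did *SNCG* (gamma-synuclein) at a ratio of 0.831. The endocytosis gene *snap91b* and the calcium channel subunit gene *CACNA2D3* stood above it, *snap91b* with 657 in DKD morphants against 597 in controls, and *CACNA2D3* at a ratio of 1.02.

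The calcium sensor genes were lower in 8 of 8 cases, where 68.8% of the 189 genes were, with a median log2 ratio of -0.27. The group held 1.08% of the summed means in DKD morphants and 1.254% in uninjected controls. Calmodulin is encoded by several genes with the same or nearly the same protein product, and *calm3b*, *CALM2*, *calm1b*, *calm2a* and *calm1a* had ratios of 0.892, 0.745, 0.835, 0.813 and 0.829. *CPNE4* (copine), which binds phospholipids in the presence of calcium, had 436 in DKD morphants and 678 in uninjected controls (ratio 0.643). For the heterotrimeric G proteins, the gamma subunit gene *GNG3* had 734 in DKD morphants against 1122 in controls (ratio 0.654), while the beta subunit genes *gnb1b* and *gnb1a* had ratios of 1.06 and 0.973. The 5 genes for 14-3-3 proteins, which bind phosphorylated partners, were lower as deposited (median log2 ratio -0.20), and 3 of the 5 were lower with both groups scaled to the same total. *YWHAG* led them with 1826 in DKD morphants and 2187 in controls, and the ratio of *ywhaqa* was 0.99. The neuronal calcium sensor genes *hpca* (hippocalcin) and *VSNL1* (visinin-like) had ratios of 0.947 and 0.882.

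Chromatin genes numbered 15, of which 6 were higher and 9 lower, with a median log2 ratio of -0.06. The range within the group was wide. The prothymosin gene *ptmaa* had 2805 in DKD morphants against 1820.0 in uninjected controls (ratio 1.54), which placed it at rank 11 in DKD morphants and 34 in uninjected controls, while its paralog *ptmab* had 1771 in DKD morphants and 2237 in controls (ratio 0.792). Prothymosin is a small acidic nuclear protein that binds histones. *HMGB3* and *HMGB2*, which bend DNA, lay on opposite sides at ratios of 0.68 and 1.19. *H3-3B*, a replication-independent histone H3 gene, had 1413 in DKD morphants against 1684 in controls, and *h2ax1*, of the H2A.X histone family, had 1365 in DKD morphants and 1634 in uninjected controls. The nucleosome-binding HMGN genes had ratios of 0.988 (*hmgn6*), 0.853 (*hmgn7*) and 1.04 (*HMGN2*), and the heterochromatin protein gene *CBX5* had a ratio of 1.04. The histone and chromatin list as a whole had 22 rows higher and 23 lower.

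The RNA-binding protein genes had 7 higher and 5 lower, with a median log2 ratio of 0.05. *ELAVL3* had 1254 in DKD morphants against 1178 in controls and *ELAVL4* had 952 in DKD morphants and 854 in controls; both bind AU-rich elements in neuronal mRNAs. The splicing factor genes *hnrnpa0l* and *khdrbs1a* had ratios of 1.06 and 1.08, and *YBX1*, an mRNA packaging protein gene, had 915 in DKD morphants against 902 in uninjected controls. The rows of *HNRNPAB* differed from each other, at ratios of 0.755 (ENSDARG00000007960) and 1.19 (ENSDARG00000099865). For translation there were 3 members. The elongation factor gene *eef1a1l1* had 1088 in DKD morphants and 1452 in controls (ratio 0.75), and the ribosomal protein genes *RPL3* and *RPL19* had ratios of 0.844 and 1.07. Ribosomal protein genes were otherwise outside the 200 rows, with a median control rank of 2830 over 81 rows. Of the 80 rows with a mean of at least 10, 60 were higher in DKD morphants (median log2 ratio 0.09). Translation factors had 36 of 51 rows higher (median log2 ratio 0.12).

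Chaperone genes among the members were balanced, 4 higher and 4 lower, with a median log2 ratio of -0.03 that became 0.01 under scaling to the same total. The constitutive HSP70 gene *HSPA8* had 2493 in DKD morphants against 3056 in controls (ratio 0.816), and the HSP90 genes *HSP90AA1* and *HSP90AB1* had ratios of 0.952 and 0.898. In the endoplasmic reticulum, the HSP70 gene *HSPA5* had 1171 in DKD morphants and 1147 in uninjected controls and calreticulin (*CALR*) had 949 in DKD morphants against 944 in controls. The prolyl isomerase gene *ppiab* had 1053 in DKD morphants and 1013 in controls. The stress-inducible HSP70 rows were outside the window and are described below. Of the whole chaperone list, 33 of 46 rows with a mean of at least 10 were higher and 13 lower (median log2 ratio 0.18). For protein turnover, the polyubiquitin gene *ubc* had 1169 in DKD morphants against 1507 in uninjected controls, and *ubb*, a further polyubiquitin gene, had 1054 in DKD morphants and 1417 in controls. *VCP*, the ATPase that extracts ubiquitinated proteins, had 1589 in DKD morphants against 1292 in controls (ratio 1.23). The SUMO gene *sumo3a* had a ratio of 0.827, and the proteasome subunit gene *PSMD3* had 643 in DKD morphants and 571 in uninjected controls. Of the whole ubiquitin and proteasome list, 42 of 61 rows were higher (median log2 ratio 0.12). Immediate-early genes, which tissue dissociation can induce, were also among the members. *FOS* had 1327 in DKD morphants against 1368 in controls, while its partners *JUN* and *JUNB* had ratios of 0.905 and 0.976. The stress factor gene *atf4b* had 442 in DKD morphants and 567 in controls (ratio 0.779).

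Of the genes for surface and secreted proteins, 5 were higher and 4 lower (median log2 ratio 0.09). *NELL2*, a secreted protein that guides commissural axons in mouse, had the highest ratio of all 189 genes, with 1826 in DKD morphants against 1184 in uninjected controls (ratio 1.54). *MDK* (midkine), a growth factor that binds heparin, had 496 in DKD morphants and 783 in controls (ratio 0.634). The adhesion gene *CDH2* (N-cadherin) had 618 in DKD morphants against 618 in controls. The amyloid precursor family genes *APP* and *APLP1* had ratios of 1.06 and 1.09, the tetraspanin gene *CD81* had 714 in DKD morphants and 620.3 in uninjected controls, and *tmeff1b*, a transmembrane protein gene, had 1174 in DKD morphants against 1009 in controls. *SLC1A2*, a glutamate transporter gene known mainly from astrocytes, had 935 in DKD morphants and 1069.8 in controls, and it was the one member from the list of crest, glial and endothelial genes.

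Transcription factor and developmental genes of neurons gave 7 members, 2 higher and 5 lower (median log2 ratio -0.32). The lowest ratio among the 189 genes was that of *ZC4H2*, a zinc finger protein gene of interneuron development in zebrafish, with 468 in DKD morphants against 768 in uninjected controls (ratio 0.609). *ONECUT1*, a transcription factor gene of young spinal neurons, had 853 in DKD morphants and 661 in controls (ratio 1.29), and *MEIS1*, a partner of HOX proteins, had 971 in DKD morphants against 894 in controls. The V1 and dI2 identity genes *en1b*, *PAX2* and *lhx5* had ratios of 0.892, 0.8004 and 0.793. Most of the identity list lay below the 200 rows and leaned the other way: among its 17 rows with a mean of at least 10 that were not members, 14 were higher and 3 lower (median log2 ratio 0.21), the targeted *HMX2* and *HMX3* among the higher ones. A further one was *FOXD3*, a V1 gene in mouse, with 395 in DKD morphants and 340.5 in uninjected controls. *FOXD3* also stands in the list of crest, glial and endothelial genes. Among the transmitter genes outside the members, *SLC6A5*, the glycine transporter gene of glycinergic neurons, had 415 in DKD morphants against 532 in controls, and the row of *GAD1* (GABA synthesis) with the higher mean had 384 in DKD morphants and 142 in controls.

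The order of the members was kept in large part. The ratio window that chose them limits how far their order could change, so nothing is read from this. Spearman's rho between the group means was 0.886 over the 189 genes and 0.973 over all rows, as a description over genes, which are not replicates. Ranked among all rows, 82 genes had a higher place in DKD morphants, 94 had a lower one and 13 kept theirs. The median shift was 0 places and the median size of a shift was 15 places. The size differed with the starting place, with a median of 4 places for the first 50 control ranks, 9 for the next 50, 27 for the 50 after those and 33 for the last 50. The largest moves up were those of *atp1a3b* (rank 97 in DKD morphants, 193 in uninjected controls) and *nefmb* (96 in DKD morphants, 190 in uninjected controls). Next came *tuba8l4* (115 in DKD morphants, 198 in uninjected controls), *ONECUT1* (88 in DKD morphants, 150 in uninjected controls) and one *HNRNPAB* row (123 in DKD morphants, 180 in uninjected controls). The largest moves down were those of *ca2* (265 in DKD morphants, 142 in uninjected controls) and *PENK* (264 in DKD morphants, 143 in uninjected controls), then *GPX4* (277 in DKD morphants, 156 in uninjected controls), *ZC4H2* (230 in DKD morphants, 118 in uninjected controls) and *PKM* (245 in DKD morphants, 133 in uninjected controls).

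**Figure D5:**
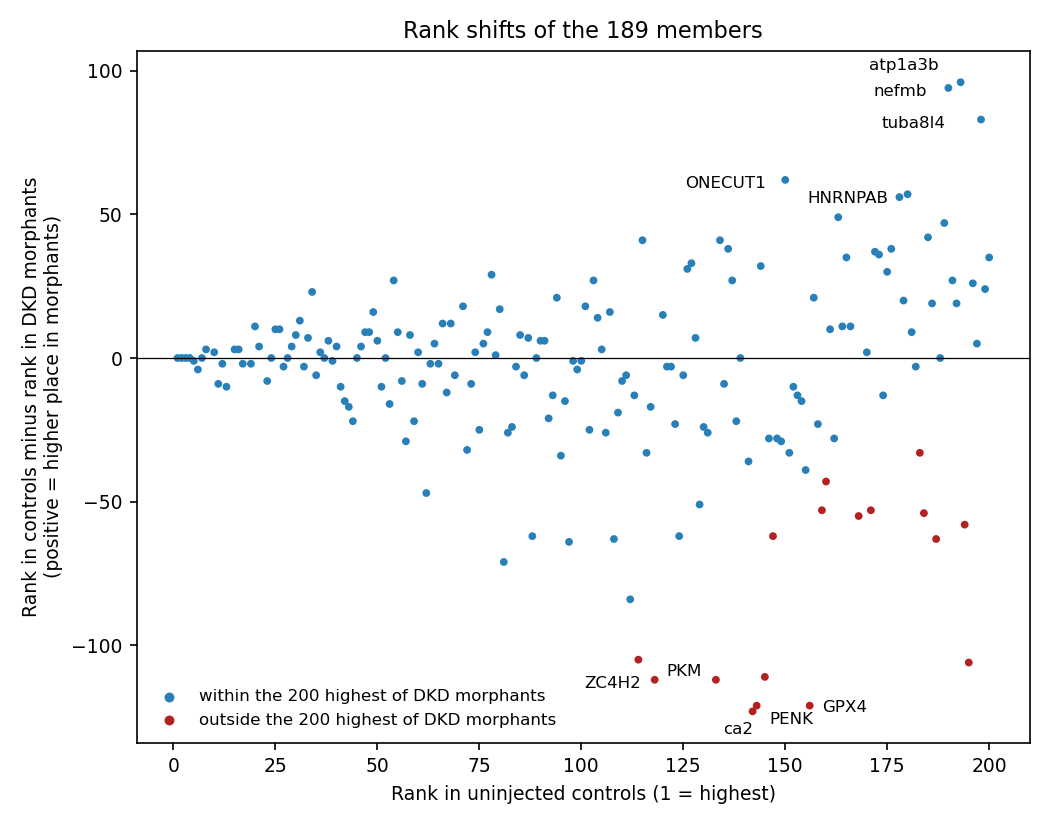
Rank in uninjected controls minus rank in DKD morphants (vertical axis, positive for a higher place in morphants) against the rank in uninjected controls (horizontal axis), 1 point for each of the 189 genes. Points in red stand outside the 200 highest rows of DKD morphants. Shifts are small among the first 50 ranks, where the means lie further apart. Further along they reach 96 places up (*atp1a3b*) and 123 places down (*ca2*).

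Of the 189 genes, 172 were also among the 200 highest rows of DKD morphants and 17 were not. Besides *PENK*, *pcsk1nl*, *SLC32A1* and *SNCG* of the synaptic group, those outside were *PKM*, *ca2*, *GPX4*, *CPNE4*, *MDK*, *ZC4H2*, *GNG2*, *tuba2*, *myhz1.3*, *atf4b*, *ndrg3a* and the identity genes *PAX2* and *lhx5*. Over all rows, the highest 200 of the groups had 177 rows in common, which is the same share of each, and 23 rows were among the 200 in DKD morphants alone.

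At the threshold of abundance, the last row inside was NSG2, a gene for a neuronal endosome protein, with 595.7 in DKD morphants and 546.1 in uninjected controls, and the first outside was HOXB8, a HOX gene of the trunk, with 644.5 in DKD morphants and 545.9 in uninjected controls. The ratios nearest to the window's edges were 0.609 (*ZC4H2*) and 1.54 (*NELL2*) inside it and 0.499 (*hsp70l*) and 2.45 (*HMX3*) outside it. The 11 rows set aside included 4 rows of HSP70 genes, *HSPA2*, *hsp70.3*, *hsp70l* and *hsp70.1*, a chaperone family that heat and other stress induce. *HSPA2* had 1273 in DKD morphants against 2864 in uninjected controls, and *hsp70.3* had 1132 in DKD morphants and 2611 in controls. The row of *hsp70l* had 1223 in DKD morphants against 2451 in controls, and *hsp70.1* had 369 in DKD morphants and 768 in uninjected controls. Their means together came to 3998 normalized reads in DKD morphants and 8694 in uninjected controls, and these paralogs are nearly identical in sequence. The keratin gene *krt4* of skin had 1077 in DKD morphants against 3557 in controls, and the cytokeratin genes *cyt1* and *cyt1l* lay in the same direction at ratios of 0.373 and 0.306. *CALB1*, a calcium buffer gene, had 382 in DKD morphants and 1079.8 in controls (ratio 0.354). The collagen gene *col1a1a* had 317 in DKD morphants against 700.1 in uninjected controls, and *myhz1.1*, a fast myosin heavy chain gene, had 209.6 in DKD morphants and 614 in controls. *HMX3* was the one row of the 11 with the higher mean in DKD morphants.

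The remaining members were 8 genes with clone names, to which no role is given here, and 7 named genes without a common role. Among the clone-named genes 3 were higher and 5 lower, and the one with the most reads, *si:ch211-276i12.12*, had 1990.3 in DKD morphants against 2871 in controls (ratio 0.693). The other named genes were 1 higher and 6 lower, or 4 lower with both groups scaled to the same total, with log2 ratios between -0.32 and 0.15. *TSC22D1* had the highest ratio of these 7, with 649 in DKD morphants and 586 in uninjected controls (ratio 1.11).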

How the data were processed

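Cells were FAC-sorted from 5 replicates of each group, and cDNA was made with the SMART-Seq v4 kit and libraries with Nextera XT, which does not keep strand. Reads were trimmed and aligned by the authors with STAR 2.6.1d (version per the submitters' processing notes), normalized with TMM and compared by Gene-Specific Analysis (Partek Flow). The values used are the authors' least squares means of normalized reads per group, a signal that is deposited for 15369 rows with no values of single samples. The 4 columns of the authors' comparison (P-value, false discovery rate, ratio and fold change) were not used. Their annotation is named as the Lawson model, while the rows carry Ensembl identifiers. The build of the genome, and whether low counts were filtered, are not given in the sources used here, so no coordinates are printed. Symbols came from a table of gene names that matched 14905 of the 15369 identifiers and all 189 members, many in human style.

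Ratios, ranks, shares and counts were computed with Python 3.11.15, NumPy 2.4.6, pandas 2.3.3 and SciPy 1.17.1, and figures were drawn with matplotlib 3.10.9. The steps were tested on the real control means, with ratios planted in some of the rows. The planted share was computed over the recovered members, so that part of the test could not fail. No test was run and no intervals are given, since only group means were used. The paper states a sequencing depth per sample, but read totals per sample were not checked here. A difference of 1.5-fold was used to count higher and lower genes, with a ratio of 5 to 4 as an alternative. Further alternatives were other scalings, pseudocounts, other sets of highest rows, and whole lists in place of members. Named genes are the 10 members with the highest control mean, the 5 highest and 5 lowest ratios, the 5 largest rank shifts each way, up to 4 members of each list by control mean, the rows set aside and those next to the thresholds. Some genes that this rule covers are not reported here. Further genes were named after their values were seen, to describe the role groups. The members and the 20 lists were chosen with earlier results of these data known, and the 24 role groups were assigned after values were seen.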

Additional observations from a re-analysis of the deposited data

How the results depend on the processing

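No paired analysis was possible because values of single replicates were not used, although the labels of both groups share replicate numbers, and no replicate could be left out for the same reason. The planned ranking by mean per kilobase was not run, since no transcript lengths were used. The share of the summed means held by the members was lower in DKD morphants under every alternative run. Differences ran from -1.10 (without the 10 highest members) to -2.91 percentage points (all 200 rows). Both scalings leave a share as it is, at -1.94 percentage points, so they could not alter this result. Most other alternatives still took rows by a high control mean, which by itself leans toward a lower share in DKD morphants. For the 200 rows highest in DKD morphants, inside the window, the difference was -1.28 percentage points. The median log2 ratio stayed negative in each alternative run. It lay between -0.16 without the members of the neuronal differentiation and axon list and -0.06 for the 200 rows highest in DKD morphants. Pseudocounts of 1 and 5 are small beside these means and left it at -0.14. Each scaling shifts all ratios by the same amount, to medians of -0.10 (same total) and -0.16 (centred). That shift is too small to change the sign of any glycolysis, muscle, calcium sensor or vacuolar pump member. Most other sets again took rows by a high control mean, so no support is drawn from the constant sign. Counts past the fold moved with the fold, to 6 higher and 43 lower past a ratio of 5 to 4. When the 200 rows highest in DKD morphants were taken, 2 were lower past 1.5-fold, *GNG3* and *MYL11*. *MDK*, *ZC4H2*, *PKM*, *CPNE4*, *PENK*, *ca2* and *GPX4* were also lower past 1.5-fold but lay outside those 200 rows. A ranking by the DKD morphant mean leaves out such rows by its own rule. The direction of small medians was not stable. With both groups scaled to the same total, the median log2 ratio was 0.0131 for the chaperone role group, 0.0299 for mitochondria, 0.00248 for members of the respiratory list and 0.0128 for members of the neuronal differentiation list. After centring it was -0.0175 for other metabolism and -0.0107 for members of the chaperone list. Taking all rows of a list with a mean of at least 10 in place of its members gave the opposite sign for several lists. These were ribosomal proteins (0.0867), translation factors (0.12), the ubiquitin and proteasome list (0.12) and the neuronal differentiation list (0.0494). V1 and dI2 identity genes (0.16) and neurotransmitter genes (0.0555) did so as well. The rows added to these lists had higher median ratios than the members. They were lower in the order, except *HMX3*, which was at rank 132 in uninjected controls and was set aside by the ratio window. The chaperone list moved to 0.18 with all its rows. There were no values of single samples and the authors' comparison columns were not used. Neither replicate error nor counting error limits are therefore stated for any of these values.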

Other observations

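Of the 23 rows that were among the 200 highest in DKD morphants alone, 21 had a ratio inside the window, and the other pair were *gch2* and *HMX2*. The row of *gch2*, a GTP cyclohydrolase gene of pigment cell precursors, had 1252 in DKD morphants against 329.8 in controls, which is rank 47 in DKD morphants and 392 in uninjected controls. It stands in the list of crest, glial and endothelial genes, of which 5 rows with a mean of at least 10 were higher and 7 lower. *HMX2* was at rank 120 in DKD morphants and 683 in uninjected controls.

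The 23 rows also held HOX genes, which set position along the trunk. *HOXB8* had 645 in DKD morphants and 546 in controls, *HOXA3* had 624 in DKD morphants against 521 in uninjected controls and *hoxc3a* had 531 in DKD morphants and 454 in controls, and *HOXB9* had 532 in DKD morphants against 537 in controls. *MEIS2*, whose product is a partner of HOX proteins, had 573 in DKD morphants and 526 in uninjected controls. Of genes for protein quality and turnover, *PSMD1* (a proteasome subunit) had 707 in DKD morphants against 523 in controls, *uba1* (the ubiquitin-activating enzyme) had 660.5 in DKD morphants and 500.2 in controls and *CANX* (calnexin, a lectin chaperone) had 697 in DKD morphants against 506 in uninjected controls. The synaptic vesicle protein gene *SV2B* had 554 in DKD morphants and 373 in controls (ratio 1.49), and *anxa13l*, an annexin gene, had 532 in DKD morphants against 316 in controls (ratio 1.68). These rows were selected by a high mean in DKD morphants, so their ratios above 1 are no finding. With only group means used, the spread of these levels between replicates was not tested.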
